A study of Mus musculus with 31 samples.

Results

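Nmur1 encodes neuromedin U receptor 1, a cell-surface receptor for the peptide neuromedin U (NmU). It was followed in D10.G4.1 cells, a cloned mouse line of type 2 helper T (Th2) cells, given NmU or phosphate-buffered saline (PBS) as vehicle. The members were every probe set paired with the single symbol Nmur1 or Nmur2 in the platform's probe annotation. They came to 1 of 12488 probe sets, which is paired with Nmur1, or 1 of 8252 named genes. Of the probe sets, 0 carried the symbol Nmur2, and that second receptor is not analysed here.

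The 8 groups were cells treated with NmU for 0.8, 3, 6 or 12 h and cells treated with PBS for the same times. There were 31 arrays, 3 for NmU at 3 h and 4 for each other group. All cells came from 1 clone, no dose of NmU is given, and nothing in the labels says that the replicates of a group were grown separately, so that p-values may measure technical spread alone.

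Neuromedin U receptors belong to the G protein-coupled receptors. On binding NmU, receptor 1 acts mainly through G proteins of the Gq class, which switch on phospholipase C, release calcium from internal stores and activate protein kinase C; G protein-coupled receptor kinases, arrestins and RGS proteins then turn the signal down. Receptor 1 is known mainly from peripheral tissues, including cells of type 2 immunity such as group 2 innate lymphoid cells, and receptor 2 mainly from the nervous system. Nmur1 was formerly listed as an orphan receptor under the name Gpr66.

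The promoter of Nmur1 is shown because it is the stretch of regulatory sequence that belongs to the only member. RefSeq places 2 transcription starts for the gene on the minus strand of chromosome 1 in the mouse assembly GRCm38.p6, 1220 bases apart. The 250 bases before the outermost start lie at chr1:86389362-86389611 and read, from 5′ to 3′ on the strand of the gene:
Nmur1: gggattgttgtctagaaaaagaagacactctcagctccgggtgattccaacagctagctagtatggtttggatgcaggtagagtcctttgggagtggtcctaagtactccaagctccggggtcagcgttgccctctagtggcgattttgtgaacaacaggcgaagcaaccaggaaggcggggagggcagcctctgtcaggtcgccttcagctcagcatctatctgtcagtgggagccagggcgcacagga

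Capitals would mark matches to 5 short motifs of factors that act in activated T cells, searched on both strands, and there were 0 in this window. The motifs were the NFAT core GGAAA, present in 55.6% of 32851 mouse promoter windows of the same length, the AP-1 site TGAGTCA (4.46%), the cyclic AMP response half-site TGACG (17.8%), the EGR motif GTGGGCG (7.02%) and the GATA motif AGATAA (9.99%). The equal window before the inner start held 2 NFAT cores and none of the other 4 motifs. A match or its absence describes these letters only. The signal was not resolved between the starts.

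D10.G4.1 identity was checked against marker genes. Of the 10 T helper markers on the array, 8 passed the filter on dim probe sets (a signal over 20.2 in at least 1 group), among them Cd3d, Cd3e, Cd3g, Cd4, Cd28 and Gata3, while Thy1 and Cd5 lay close to the floor. Of the markers of other cells on the array, 0 of 5 passed for cytotoxic T and natural killer cells, 5 of 5 for B cells, 2 of 6 for macrophages and monocytes (Csf1r and Cd14) and 1 of 6 for mast cells (Cpa3). Of the group 2 innate lymphoid markers, Klrg1 and Rora passed and Arg1 did not. The summed T helper signal ranged from 6117.7 to 8562.5 over the 31 arrays.

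The Nmur1 probe set was above the floor on all 31 arrays, with intensities between 83.1 and 271.8 and a median of 199.8, a span of 3.27-fold. At 0.8 h its intensity was 162.9, 183.8, 210.9 and 212.3 in NmU cells, against 157.6, 228.0, 199.8 and 219.7 in PBS cells. These groups overlapped throughout, with means of 192 ± 23.7 and 201 ± 31.4 (SD, n = 4 each; NmU, then PBS).

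At 3 h the intensity was 83.1, 153.6 and 144.2 in NmU cells, against 266.4, 252.5, 247.3 and 88.1 in PBS cells. All 3 NmU arrays and the last PBS array were low, the other PBS arrays were high, and the groups overlapped because of that 1 PBS array. The means were 127 ± 38.3 in NmU cells (SD, n = 3) and 214 ± 84.0 in PBS cells (SD, n = 4). Without PBS replicate 4 the PBS mean was 255.4 ± 9.87 (SD, n = 3), and every NmU array lay below every PBS array.

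At 6 h the order was the opposite. Intensities were 229.6, 261.6, 271.8 and 252.3 in NmU cells, against 197.0, 192.7, 225.3 and 163.9 in PBS cells, and the lowest NmU array was just above the highest PBS array. The means were 254 ± 18 in NmU cells and 195 ± 25.1 in PBS cells (SD, n = 4 each). Non-overlap with NmU higher was found at 6 h for 6.54% of the 7930 probe sets tested.

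At 12 h NmU cells were the lower group. Intensities were 148.0, 131.8, 150.9 and 98.4 in NmU cells, against 211.7, 208.6, 205.2 and 153.3 in PBS cells. The groups did not overlap, though PBS replicate 4 lay close to the NmU arrays; the means were 132 ± 24.1 in NmU cells and 194.7 ± 27.7 in PBS cells (SD, n = 4 each). Non-overlap with NmU lower was found at 12 h for 3.82% of probe sets, and the 6 h and 12 h orders together for 0.0631%. The joint order was taken from the Nmur1 values themselves, so its share is a description and no test.

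**Figure D1:**
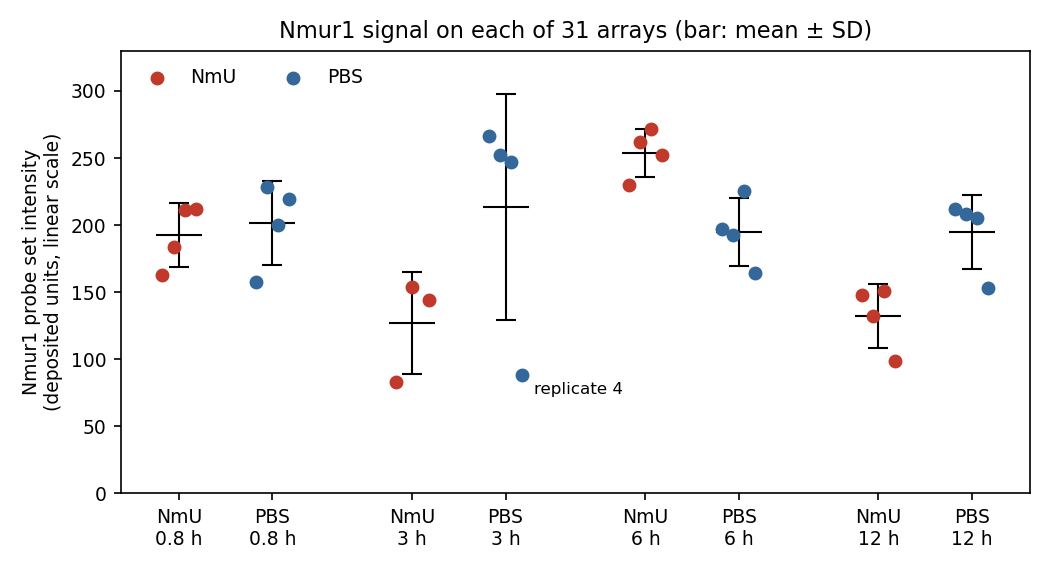
Nmur1 probe set intensity (linear scale, deposited units) on each of the 31 arrays, by treatment and time, with the mean ± SD of each group as a bar. The PBS 3 h array at 88.1 lies among the NmU 3 h arrays, while the NmU groups are above PBS at 6 h and below PBS at 12 h without overlap.

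Ordered by mean intensity, NmU at 6 h was the highest group, followed by PBS at 3, 0.8, 6 and 12 h, then NmU at 0.8 h, NmU at 12 h and NmU at 3 h. This top place turned on 1 array, since without PBS 3 h replicate 4 the PBS 3 h mean was 255.4, just above the 254 of NmU at 6 h. Of the 7 neighbouring steps only that from NmU at 0.8 h to NmU at 12 h separated groups without overlap, as it did for 4.6% of probe sets. The other neighbours did not differ beyond their spread. The 4 PBS means lay between 194.7 and 214 with all arrays, and between 194.7 and 255.4 without PBS 3 h replicate 4.

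The question put to the receptor was whether the ligand changes its transcript level. One linear model (limma) of log2 intensity, with 8 group means, was fitted to all 7930 probe sets that passed the filter, and p-values were adjusted over all of them by the Benjamini-Hochberg method. Values under 5.8, the 20th percentile, were raised to that floor, and a probe set passed when it exceeded 20.2, the 40th percentile, in at least 1 group. A call means an adjusted p under 0.05.

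With all arrays at equal weight, Nmur1 was called at none of the 4 times. At 3 h, where 5.73% of probe sets were called lower and 10.2% in either direction, the NmU minus PBS difference was -0.67 on the log2 scale (SE 0.27, 95% interval -1.23 to -0.12). Its limma p was 0.0184 unadjusted and 0.112 adjusted, rank 1301 among the probe sets.

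The size of the 3 h difference depended on PBS 3 h replicate 4. Without that array, and with the model refitted to 7939 probe sets, the difference was -1.06 (SE 0.19, 95% interval -1.46 to -0.66), a level 2.08-fold lower in NmU cells. The limma adjusted p was then 0.000507 and the rank 187, in a comparison that called 6.59% of probe sets lower. The groups then did not overlap, as was so for 17.5% of probe sets in that direction. An exact two-sided permutation test of the 3 h means gave p = 0.2286 with all arrays and p = 0.1 without replicate 4, and the smallest values that 3 against 4 and 3 against 3 arrays allow are 0.05714 and 0.1.

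With all arrays kept and each weighted by how well it fitted its group, the 3 h difference was -0.87 (limma adjusted p = 0.00469). PBS 3 h replicate 4 had the lowest weight of the 31 arrays, 0.28, so it counted little in this fit. NmU replicate 1 bears on the 3 h difference as well. With all other arrays kept, leaving out that NmU array, the lowest of the 31, brought the 3 h difference to -0.39 with a limma adjusted p of 0.487.

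At 6 h the difference was 0.39 (SE 0.25, 95% interval -0.12 to 0.90, limma adjusted p = 0.449), where 2.85% of probe sets were called higher. At 12 h it was -0.57 (SE 0.25, 95% interval -1.08 to -0.06, limma adjusted p = 0.38), where 0.404% were called lower. The exact permutation p was 0.02857 at each of these times, the smallest that 4 against 4 arrays can give, and 0.05714 after adjustment over the 4 times. At 0.8 h the difference was -0.06 (SE 0.25, limma adjusted p = 0.993) and the exact permutation p was 0.6857, where 0.845% of probe sets were called in either direction.

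Leaving out PBS 3 h replicate 4 lowered the residual spread of Nmur1 in the shared model, so its errors at the other times fell as well. The 12 h difference then had an SE of 0.17 and a limma adjusted p of 0.0927, and the 6 h difference a limma adjusted p of 0.196. Neither passed the threshold.

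**Figure D2:**
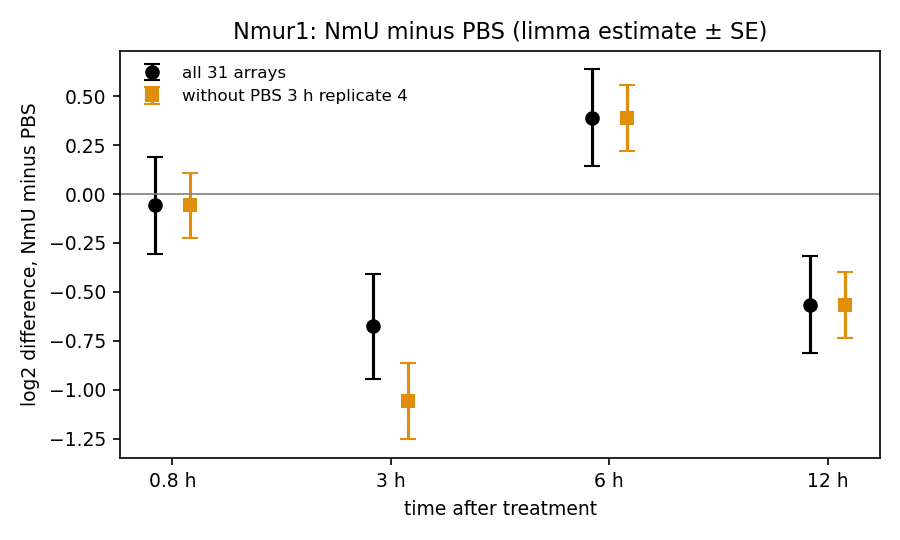
The log2 difference in Nmur1 signal, NmU minus PBS, at each time with its limma standard error, from all 31 arrays and from 30 arrays without PBS 3 h replicate 4. The 3 h estimate is -0.67 with all arrays and -1.06 without that array, and the 6 h estimate is the only one above 0.

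Whether the NmU effect differed between times was tested directly. The limma F test of the 3 differences between effects gave an adjusted p of 0.225 with all arrays, in a test that called 4.04% of probe sets, and of 0.00334 without PBS 3 h replicate 4. The effect at 3 h minus that at 6 h was -1.06 with an adjusted p of 0.241 (0.719% called), against -1.45 and 0.00423 without that array. The effect at 3 h minus that at 0.8 h was -0.62 with an adjusted p of 0.432 (3.29% called), against -1.0 and 0.0227 without it. The effects at 3 and 12 h differed by -0.11 with all arrays (limma adjusted p = 0.931, 2.85% called).

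The effect at 12 h minus that at 6 h was -0.95, with a limma p of 0.0116 unadjusted and 0.464 adjusted, in a contrast that called 0.101% of probe sets. This value does not use the 3 h arrays, and without PBS 3 h replicate 4 its adjusted p was 0.126.

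Within NmU cells Nmur1 changed with time. The limma F test over the 4 NmU times gave an adjusted p of 0.0153 (11.4% of probe sets called), and the call held when each of the 31 arrays was left out in turn. The same test over the 4 PBS times gave 0.999 with all arrays and 0.6 without PBS 3 h replicate 4 (0.0126% called). The differences between neighbouring PBS times were -0.03, -0.02 and -0.0033 with all arrays (0% of probe sets called in each). Without PBS 3 h replicate 4 the first was 0.36 and the second -0.40, neither called (limma adjusted p = 0.504 and 0.904).

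Nmur1 rose at 6 h in NmU cells relative to NmU at 3 h, by 1.05 on the log2 scale or 2.07-fold (SE 0.27, limma adjusted p = 0.0253), where 2.61% of probe sets were called higher. All NmU 6 h arrays lay above all NmU 3 h arrays, as for 9.61% of probe sets. The call was lost without NmU 3 h replicate 1, with a difference of 0.77 and an adjusted p of 0.213, and without NmU 6 h replicate 3, with 1.01 and 0.0583.

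NmU cells at 12 h were lower than NmU cells at 6 h by 1.94-fold, with a log2 difference of -0.96 (SE 0.25) that missed the threshold (limma adjusted p = 0.0657, 0.416% called lower). Without PBS 3 h replicate 4 the adjusted p was 0.00285. NmU cells at 3 h minus those at 0.8 h gave -0.64 (SE 0.27, limma adjusted p = 0.149), and 0.0224 without that PBS array (5.52% called lower). In both comparisons the arrays of the NmU groups did not overlap, as for 3.9% and 12.5% of probe sets.

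PBS 3 h replicate 4 stood apart in the data. Its mean correlation with the other arrays of its group was 0.956, the lowest of the 31 arrays. Its Nmur1 signal was 2.90-fold below the mean of the other PBS 3 h arrays, and 1.73% of probe sets lay at least as far below theirs.

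For 3 genes named after their values were seen, NmU and PBS levels lay far apart at 3 h. Il4, a Th2 cytokine, had an intensity of 422.7 there, against 2895 to 3987.1 on the NmU 3 h arrays and 463.6 to 594.8 on the other PBS 3 h arrays. Il13, another Th2 cytokine, read 1438.7 there, with 4049.3 to 5222.5 in NmU cells and 1252.9 to 1485.7 on the other PBS arrays. The transcription factor gene Myb read 899, with 229.7 to 258.6 in NmU cells and 647.3 to 904.5 on the other PBS arrays. These 3 values on the array were at or near the range of the other PBS arrays, and Nmur1, at 88.1, was near the NmU range. Egr2, named in the same way, read 83.3 there, below the 111.9 to 148.4 of the other PBS arrays, with 408.5 to 592.6 in NmU cells. The genes were picked after their values were seen, and what set this array apart was not tested.

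The genes whose pattern was most like that of Nmur1 were found by the Pearson correlation of log2 intensity over the 31 arrays, among 5904 genes, as a description. The 31 points share 1 cell clone and, within a group, treatment and time, so they are not independent of the design. The highest was Cirbp, a cold-inducible RNA-binding protein (r = 0.83), followed by Usp25, a deubiquitinase (0.81), Ikzf1, the lymphoid transcription factor Ikaros (0.80), Rasal3, a Ras GTPase-activating protein (0.78), Maf, a Th2 transcription factor (0.78), and Ctse, the protease cathepsin E (0.75). The lowest were Hsph1, a large heat shock chaperone (-0.75), Fkbp4, a co-chaperone of Hsp90 (-0.75), and Tnpo2, a nuclear import receptor (-0.74). With all arrays, 0 of these 9 genes were called between NmU and PBS at any time, against 10.2% of all probe sets at 3 h. Without PBS 3 h replicate 4, 3 of the 9 were called lower at 3 h (Cirbp, Ikzf1 and Ctse) and 1 higher (Hsph1), against 6.59% and 4.98% of all probe sets. The 9 were chosen for following or opposing Nmur1 over these same arrays, so the directions of these calls follow in part from the choice.

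On PBS 3 h replicate 4 all 9 lay outside the range of the other PBS 3 h arrays, on the side that the correlation with Nmur1 gives. The 9 were chosen over arrays that include this one, so this describes the choice and is no separate result. Cirbp read 149.2 there, with 157.3 to 261.1 in NmU 3 h cells and 270.8 to 337.5 on the other PBS 3 h arrays. Ikzf1 read 65.0, with 71.0 to 122.6 in NmU 3 h cells and 198.2 to 215.4 on the other PBS arrays. Hsph1 read 1839.7, with 1423.2 to 1855.2 in NmU 3 h cells and 860.7 to 1019.8 on the other PBS arrays.

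On some other arrays a high Hsph1 signal also went with a low Nmur1 signal. Hsph1 and Cirbp were chosen by their correlation with Nmur1 over these same arrays, so the examples describe that choice. NmU 3 h replicate 1, with the lowest Nmur1 of all arrays, had the highest Hsph1 of its group, 1855.2, and the lowest Cirbp, 157.3. PBS 0.8 h replicate 1 had Hsph1 at 1844.7 and the lowest Nmur1 of its group, 157.6. On PBS 12 h replicate 1, in contrast, Hsph1 was 1748.3 and Nmur1 was 211.7, the highest of its group. The part of the Hsph1 and Cirbp levels in the Nmur1 differences was not tested.

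The correlations did not rest on PBS 3 h replicate 4 alone. Over the other 30 arrays r was 0.78 for Cirbp and -0.71 for Hsph1. Over deviations from the group means r was 0.80 and -0.65. The deviations were taken over all 31 arrays with PBS 3 h replicate 4 included, so they do not bear on the part of that array. Both genes were chosen by their r over the same arrays, so these values follow in part from the choice and are no separate result. The order of genes did depend on the points used, since the 9 genes most and least like Nmur1 over 8 group means shared 0 with those named above.

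**Figure D3:**
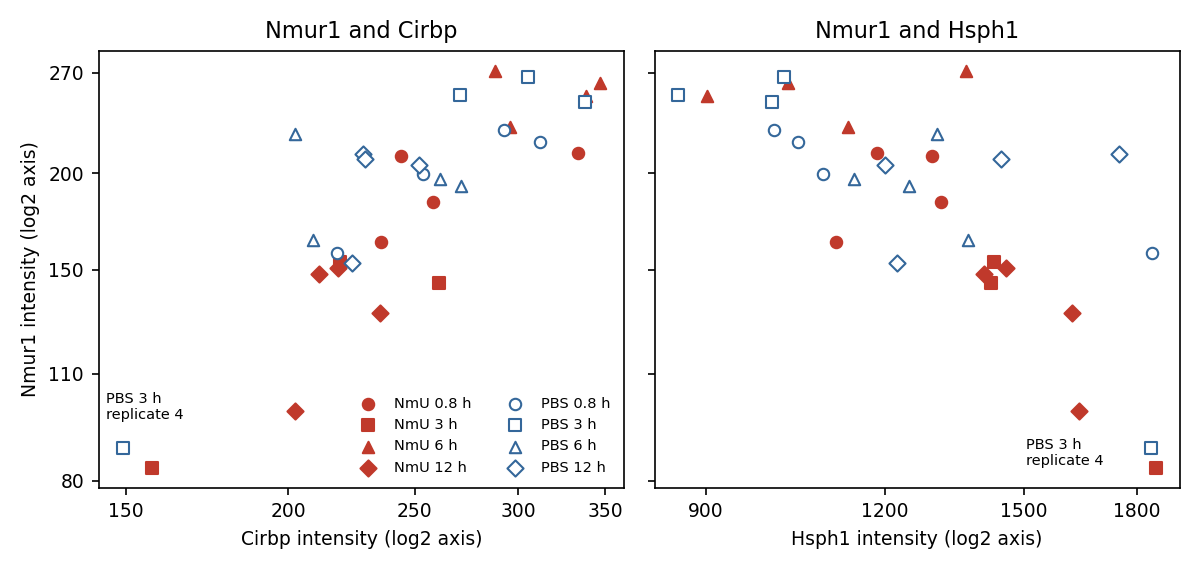
Nmur1 intensity against Cirbp (left) and Hsph1 (right) on the 31 arrays, log2 axes, with groups by colour and symbol. PBS 3 h replicate 4 and NmU 3 h replicate 1 lie together at low Nmur1, low Cirbp and high Hsph1 (1839.7 and 1855.2).

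Nmur1 was also ranked among receptors of the chemokine and orphan families. The array table held 31 genes whose symbols start with Ccr, Cxcr or Gpr (10, 4 and 17 genes), and with Nmur1 these made 32. The prefix also takes in names that are not receptors, such as Gprasp1 and the pseudogene Gpr137b-ps. By mean array intensity Nmur1 was rank 5 over the 31 arrays and over 30 arrays, and rank 4 over the 16 PBS arrays. Probe sets bind their targets unequally, so this is an order of signals and not of transcripts.

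Above Nmur1, at 190.7, stood Gpr65, a proton-sensing receptor, at 397, the chemokine receptor Ccr8, found on Th2 cells, at 252, Gpr50 at 243 and the chemokine receptor Ccr1 at 238. Next below were Gpr27 at 166, Gpr12 at 121 and Gpr162 at 82.3. Of the 32 genes, 17 passed the filter, so that Nmur1 was among the brighter receptor signals of these cells.

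By log2 difference at 3 h only 2 of the 17 genes lay below Nmur1, with and without PBS 3 h replicate 4. These were Cxcr4, the receptor for Cxcl12, at -1.25 (SE 0.26, limma adjusted p = 0.00199), and Gpr19 at -1.20 (SE 0.24, limma adjusted p = 0.00147), both lower in NmU cells. Ccr8 was higher in NmU cells by 1.03 (SE 0.22, limma adjusted p = 0.00259), and so was Ccr1 by 0.58 (SE 0.17, limma adjusted p = 0.0294). Ccr1 was not called without PBS 3 h replicate 4 (0.51, limma adjusted p = 0.0723) or without NmU 3 h replicate 2 (0.44, 0.181). In a fit of the 2 groups at 3 h alone, Ccr8, Gpr19 and Ccr1 were not called (limma adjusted p = 0.0841, 0.085 and 0.101).

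Of the 16 other receptor genes tested, 2 were thus called higher and 2 lower at 3 h; over all named genes 4.47% were called higher and 6.49% lower. Nmur1, with a difference of -0.67 (SE 0.27), was not among the called genes in the model of all arrays with equal weights. The next gene in the order by 3 h difference, Ccrl2 at -0.53 (SE 0.34), lay within that error, so the place of Nmur1 is not resolved.

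**Figure D4:**
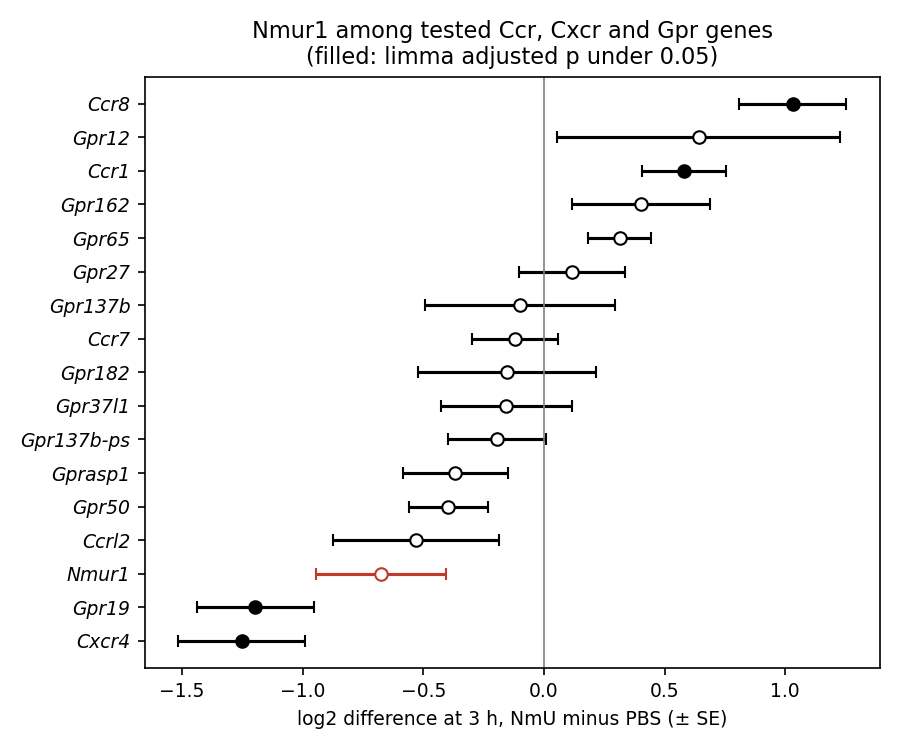
The log2 difference at 3 h, NmU minus PBS, with its limma standard error for Nmur1 and the 16 other tested genes whose symbols start with Ccr, Cxcr or Gpr. Cxcr4 (-1.25) and Gpr19 (-1.20) are the only genes below Nmur1 (-0.67), and filled points have an adjusted p under 0.05.

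The genes around the receptor were described from a list of 45: ligands, G protein subunits, phospholipases C, calcium release and kinases, and desensitisation. Of these, 36 were on the array and 26 were tested. Of the 26, 0 were called at 0.8 h, 1 was called lower at 3 h, and 2 were called higher at both 6 and 12 h. Over all named genes, at 0.8 h 0.898% were called higher and 0.0677% lower. At 3 h the shares were 4.47% higher and 6.49% lower. At 6 h 2.96% were called higher and 2.37% lower, and at 12 h 0.948% and 0.457%. The median log2 difference of the list was -0.04, -0.03, 0.01 and -0.11 at the 4 times, against -0.03, -0.04, 0.01 and -0.02 for all genes.

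The ligand gene Nmu had a signal between 2.3 and 23.3, with a median of 7.0, and lay at or under the floor on 8 of 31 arrays. It did not pass the filter and was not tested. The second ligand, Nms, is not analysed here.

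Of the 8 G protein subunits tested, 0 were called at any time. Of the Gq class, through which the receptor mainly signals, Gnaq and Gna15 were tested and were dim, with mean signals of 19.1 and 30.9. Gna11 (11.8) and Gna14 (1.93) did not pass the filter. Which subunit the receptor uses in these cells was not tested. None of the 3 phospholipases C tested was called; Plcb1 had a mean signal of 459 and a 3 h difference of -0.24 (limma adjusted p = 0.396).

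Among calcium release genes and kinases, 1 of 7 was called. Prkce, the gene of protein kinase C epsilon, had intensities of 55.5, 49.3, 78.7 and 47.2 in NmU cells at 6 h, against 30.3, 31, 33.5 and 35.3 in PBS cells. The groups did not overlap, as for 6.54% of probe sets with NmU higher, and Prkce rose by 0.80 (SE 0.16, limma adjusted p = 0.00342). At 12 h it rose by 0.69 (SE 0.16, limma adjusted p = 0.0301), with means of 62.0 ± 7.47 in NmU cells and 38.8 ± 7.52 in PBS cells (SD, n = 4 each). The 12 h call was lost without any 1 of PBS replicates 2, 3 and 4 or NmU replicates 3 and 4 (0.57 to 0.70, limma adjusted p between 0.0665 and 0.114). It was also lost with a replicate block (limma adjusted p = 0.0738) and in a fit of the 2 groups alone (0.126). A second Prkce probe set was not called at 6 h (0.71, limma adjusted p = 0.204) or 12 h (0.91, 0.191).

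Among the 8 tested genes of receptor desensitisation, 2 were called. Rgs10, which speeds the shut-off of G protein alpha subunits of the Gi class, had intensities of 185.7, 192.7, 184.3 and 135.3 in NmU cells at 6 h, against 72.3, 69.2, 67.3 and 70.7 in PBS cells. The groups did not overlap, as for 6.54% of probe sets with NmU higher, and Rgs10 rose by 1.31 (SE 0.14, limma adjusted p = 7.54e-07). At 12 h the intensities were 137.7, 118.5, 123.4 and 112.8 in NmU cells, against 66.1, 73.3, 56.6 and 76.5 in PBS cells. The 12 h rise was 0.86 (SE 0.14, limma adjusted p = 0.000634).

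A second Rgs10 probe set was called at 6 h (1.18, limma adjusted p = 4.69e-06) and not at 12 h (0.52, limma adjusted p = 0.0737). At 0.8 and 3 h the first probe set differed by -0.16 and 0.31 and the second by -0.22 and 0.40, none called.

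Rgs14, another RGS protein of the Gi class, fell by 0.40 at 3 h (SE 0.11, limma adjusted p = 0.0177). Its intensities were 574.7, 603.3 and 695.1 in NmU cells, against 947.8, 845.3, 849.7 and 674.4 in PBS cells. As for Nmur1, the groups overlapped through PBS replicate 4. The call was lost without PBS replicate 1 (limma adjusted p = 0.0664), NmU replicate 1 (0.105) or NmU replicate 2 (0.0699), when array medians were made equal (0.0551) and in a fit of the 2 groups alone (0.22). Without PBS 3 h replicate 4, the receptor kinase gene Grk5 was called lower beside Rgs14 at 3 h. That made 2 of 26 genes, against 6.59% of all probe sets called lower in that fit. At 6 h Rgs16 was then called higher beside Prkce and Rgs10, 3 of 26 genes. With all arrays 2.96% of named genes were called higher at 6 h, and the share without that array is not given here. Rgs16 has 2 probe sets, and only the brighter stands for it.

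**Figure D5:**
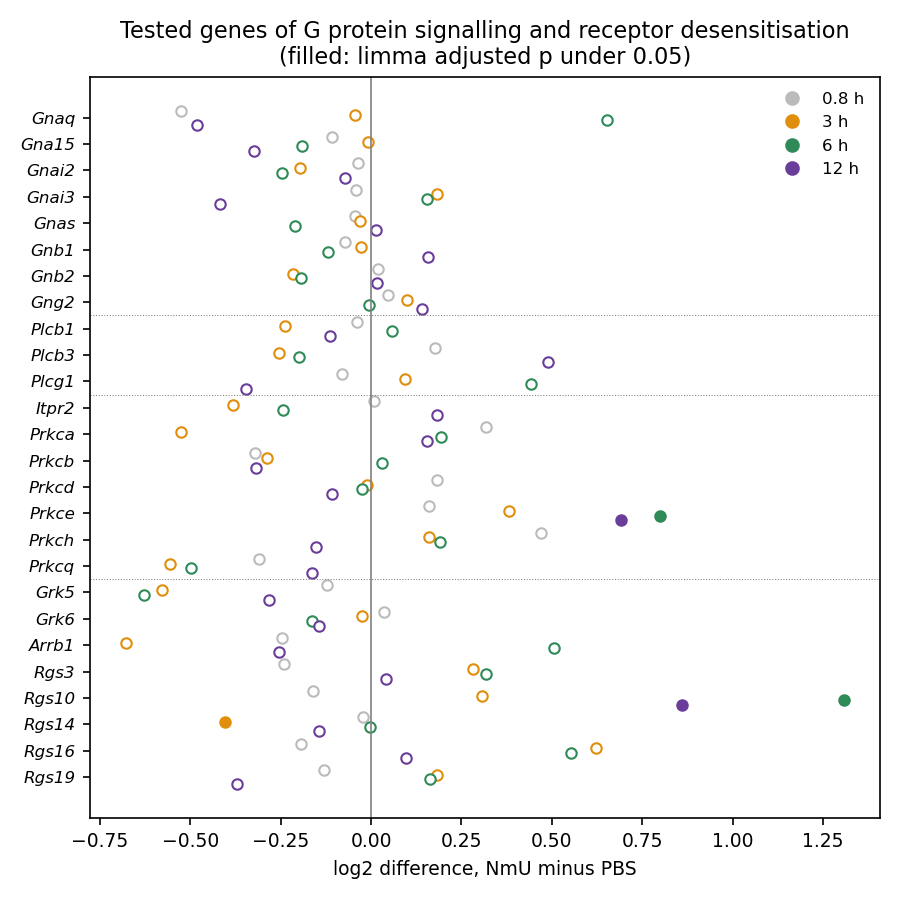
The log2 difference, NmU minus PBS, of the 26 tested genes of G protein signalling and desensitisation at 0.8, 3, 6 and 12 h, with filled points where the limma adjusted p is under 0.05. Rgs10 at 6 h (1.31) and 12 h (0.86) lies furthest to the right among the called points, and Rgs14 at 3 h is the only one called lower.

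In a bulk sample, less RNA per cell and fewer cells with the transcript cannot be told apart, and this applies to each Nmur1 difference above. Summed markers of cytotoxic T and natural killer cells were between 19.0 and 43.7 on all arrays, of B cells between 98.1 and 216.1, of macrophages and monocytes between 94.2 and 187.1, and of mast cells between 31.1 and 111.4. The part of these markers in the Nmur1 values was not tested.

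Of the group 2 innate lymphoid markers 3 of 6 were on the array, and their sum was mostly Klrg1 (mean signal 286), which activated T cells also express. Klrg1 was higher in NmU cells at 6 h by 0.93 (SE 0.20, limma adjusted p = 0.00596) and was not called at 12 h (0.53, SE 0.20, limma adjusted p = 0.287), nor was Rora at either time. The sum was 455 to 471.3 in NmU cells at 6 h, against 235.9 to 293.4 in PBS cells, and 336.1 to 418.8 in NmU cells at 12 h, against 239.2 to 281.5 in PBS cells. At 3 h it was 211.4 to 333.6 in NmU cells and 193.6 to 377.4 in PBS cells, and Arg1 averaged 2.58, under the floor. The NmU mean of Nmur1 was above that of PBS at 6 h and below it at 12 h, neither called, and the part of this sum in the Nmur1 values was not tested.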

How the data were processed

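Total RNA of 31 D10.G4.1 samples was hybridised to 1 array each, and groups and replicate numbers come from the sample titles. The deposited values are linear probe set intensities; how the authors summarised and scaled them is not given in the sources used here. In the deposited intensities array means trimmed by 2% at each end were 150.095 to 150.113 and array medians 34.4 to 43.3, so they were used as scaled. From 15.4% to 24.1% of probe sets per array lay at or under the floor. This global scale makes each change relative to the rest of the array. The number of arrays limits the precision, and no array pair was identical (0 pairs).

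Of 12422 probe sets that were not among the 66 controls, GEO's platform annotation paired 10833 with 1 symbol, 396 with several and 1193 with none. Entrez numbers matched 10817 of the 10833 to RefSeq (GRCm38.p6) and changed 0 symbols. The filter kept 7930 probe sets for 5905 named genes, each represented by its brightest probe set. The linear model came from limma 3.58.1 (R 4.3.3), through lmFit and then eBayes, on 23 residual degrees of freedom plus 2.72 from the prior. Permutation tests used SciPy 1.17.1, figures matplotlib 3.10.9, and the scripts were tested on simulated data. The promoter is RefSeq's.

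Named genes were Nmur1, the 6 genes most and 3 least correlated with it, receptor genes next to it in signal or called at 3 h, and pathway genes called at any time plus the ligands. Other genes (Il4, Il13, Myb, Egr2 and those of the closing observation) were named after their values were seen. The members and lists were chosen with earlier results of these data known. Alternatives were another floor, filter, scaling, pseudocount, array weights, 2-group fits, replicate blocks and leaving out each array. Counts over the pathway list and over the correlated genes without PBS 3 h replicate 4 were added after the data were seen.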

Additional observations from a re-analysis of the deposited data

Results flagged for a closer look

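Among 98 groups of 4 arrays over 14 named genes, a lone array lay far from the others of its group in 9, and chance gives about 1 in 20 groups. That rate does not apply to this count, because 9 of the 14 genes were chosen for their correlation with Nmur1 over the same arrays. For Nmur1 these were PBS 3 h replicate 4 at 88.1, against 247.3 to 266.4 on the other 3 arrays, and PBS 12 h replicate 4 at 153.3, against 205.2 to 211.7. On PBS 3 h replicate 4 the same held for Ikzf1 at 65.0 (others 198.2 to 215.4), Hsph1 at 1839.7 (860.7 to 1019.8), Fkbp4 at 1954.5 (1105.6 to 1244.9) and Tnpo2 at 790.4 (496.6 to 533.2). On PBS 0.8 h replicate 1 it held for Hsph1 at 1844.7 (1003.3 to 1086.2) and Usp25 at 152.1 (251.8 to 272.0). Rgs10 stood at 135.3 on NmU 6 h replicate 4, against 184.3 to 192.7 on the other 3.

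The NmU effect differed between the 4 times, by the limma F test of the differences, for Rgs10 (adjusted p = 0.000138), Ccr8 (adjusted p = 0.00131) and Cxcr4 (adjusted p = 0.00284). Gpr65 was also called by this limma F test (adjusted p = 0.00561). The test called 4.04% of all probe sets, and Rgs10, Ccr8 and Cxcr4 had been named for calls in the same data.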

How the results depend on the processing

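The labels do not say whether the replicate numbers pair the arrays. Over 15 same-numbered NmU and PBS pairs the correlation of deviations ran from -0.22 to 0.20. Of these, 5 were over 0.1, and 7 of the 15 matched best within the pair. These values were not tested against chance. At 3 h Nmur1 was called with a replicate block formed inside each time (-1.06, limma adjusted p = 0.000841), where PBS replicate 4 has no partner and drops out. It was also called with array weights (-0.87, limma adjusted p = 0.00469), where PBS 3 h replicate 4 had the lowest weight, 0.28. It was not called with the block over all times (-0.76, limma adjusted p = 0.0511). Leaving out 1 array gave -1.06 to -0.39 at 3 h, -0.17 to 0.019 at 0.8 h, 0.31 to 0.46 at 6 h and -0.68 to -0.43 at 12 h; at 0.8 h the common median also turned the sign (0.024). The effect at 3 h minus 0.8 h was -1.0 with the within-times block and -1.0 to -0.34 without 1 array. At 3 h minus 6 h it was -1.45 with that block, -1.26 with weights and -1.45 to -0.78 without 1 array, and at 3 h minus 12 h -0.49 to 0.17 without 1 array. The F test of any effect gave adjusted p = 0.00143 with that block, 0.00421 with weights and 0.000555 to 0.246 without 1 array, and that of unequal effects 0.00676, 0.0178 and 0.00334 to 0.327. Within NmU, 3 h minus 0.8 h ran from -0.81 to -0.36, 6 h minus 3 h from 0.77 to 1.21 and 12 h minus 6 h from -1.03 to -0.82 without 1 array; the last was called with no floor (-0.88), the block over all times (-0.96) and weights (-0.90). Within PBS, signs turned with the common median (3 h minus 0.8 h 0.040, 6 h minus 3 h 0.026), quantile scaling (0.0076, 3 h minus 0.8 h) and weights (0.18, 3 h minus 0.8 h; 0.044, 12 h minus 6 h), and without 1 array these ran from -0.17 to 0.36, -0.40 to 0.13 and -0.083 to 0.11. The within-times block was not run for times within 1 treatment. Counts of called probe sets moved over 1.5 times: 67 to 109 at 0.8 h and 387 to 677 at 6 h with weights, 806 to 208, 387 to 202 and 100 to 64 at 3, 6 and 12 h with only 2 groups, 387 to 248, 254 and 239 without PBS 6 h replicate 1, NmU 6 h replicate 1 and NmU 6 h replicate 3, and 100 to 66 without NmU 12 h replicate 3. Nmur1 ranked 4 by signal in PBS arrays only. Of the 9 genes like Nmur1, the 6 highest and 3 lowest shared 0 and 0 over group means, 5 and 1 over 30 arrays, and 2 and 1 over deviations. Of 360 alternative values for 9 results on other named genes, 341 kept their call, 19 lost it and 0 changed sign. Of the 40 values for each result, 31 left out 1 array, mostly an array of a group not compared. Such a value has the same difference and sign by design, so these counts overstate how stable the results are. What caused the changes listed here was not tested.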

Other observations

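The order seen for Nmur1, with all NmU arrays above all PBS arrays at 6 h and below them at 12 h, was found for 5 of 7930 probe sets (0.0631%). They were those of Epas1, Stbd1, Wdr26, Evi2a and Nmur1, named here after their values were seen. The order was taken from the Nmur1 values themselves, so the share is a description and no test. Epas1 encodes a hypoxia-inducible transcription factor. No probe set was called by limma both higher at 6 h and lower at 12 h (0 of 7930), and at an adjusted p under 0.05 only Pitpnc1, a phosphatidylinositol transfer protein gene, was called both lower at 3 h and higher at 6 h.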
